A study of Caenorhabditis elegans with 4 samples.

Results

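The 10 genes examined here build the *C. elegans* eggshell or start egg activation. They are *cbd-1*, *perm-2*, *perm-4*, *cpg-1*, *cpg-2*, *chs-1*, *egg-1*, *egg-2*, *egg-3* and *mbk-2*. They were chosen by gene name, with earlier results of these data known, and all 10 were found among the 15286 genes of the deposited table. Their transcripts were measured by RNA-seq in 4 libraries of polyadenylated RNA from dissected adult gonads, 2 biological replicates per strain. The wild type was N2, the Bristol laboratory strain, and the mutant was FAS58, which carries his-72(uge40[K27M]) III, a lysine to methionine change made by genome editing at the endogenous H3.3 gene *his-72*. Both strains were grown at 25 °C, and the edited allele is present in all cells of the mutant. The titles of the mutant samples carry the strain number FAS43, whereas their strain and genotype fields and the column names give FAS58, which was used here. The comparison asks whether gonads of the oncohistone mutant hold different amounts of the transcripts with which oocytes prepare for fertilization.

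Oocytes make the eggshell in advance. Its outermost vitelline layer surrounds the oocyte before ovulation, and CBD-1, a protein with chitin-binding domains, is needed to assemble this layer together with PERM-2 and PERM-4. After fertilization the chitin synthase CHS-1 makes the middle layer of chitin, and the chondroitin proteoglycans CPG-1 and CPG-2, released from cortical granules, form the layer below it. EGG-1 and EGG-2 are proteins of the oocyte membrane with LDL receptor repeats that are needed for fertilization. EGG-3, a protein related to tyrosine phosphatases, holds CHS-1 and the kinase MBK-2 at the oocyte cortex, and on egg activation MBK-2 is set free to phosphorylate oocyte proteins that are then degraded in the embryo.

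None of the 10 genes passed the test for a difference between the strains. A gene was called when it differed more than 2-fold and its Benjamini-Hochberg adjusted *p* in the quasi-likelihood fit of edgeR was below 0.05. By this rule 0 of 10 genes were called, 0 higher and 0 lower in the mutant. Of the 15261 genes tested, which include weakly expressed ones, 5.89% were called, 4.43% higher and 1.46% lower. For a set of 10 genes, 0 calls is close to that share. The adjusted *p* alone also picked 0 of 10, against 5.96% of all genes. At an unadjusted *p* under 0.05 the count was also 0 of 10, against 24.7% of all genes tested, and it was 0 of 10 with DESeq2 as well. The levels of the mutant and wild-type libraries overlapped for all 10 genes, while they did not overlap for 56.8% of the genes tested. The median log2 fold change of the 10 genes was -0.046 and that of all genes tested was -0.113, with 5 genes above 0 and 5 below. For 8 of the 10 genes the 95% interval of the difference lay within a 2-fold change in either direction, and for *perm-4* and *chs-1* it reached beyond a 2-fold lower level. An exact permutation test of 2 libraries against 2 has 0.333 as its smallest two-sided *p*, and the *p*-values printed here therefore draw on the spread that edgeR pools over genes.

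**Figure D1:**
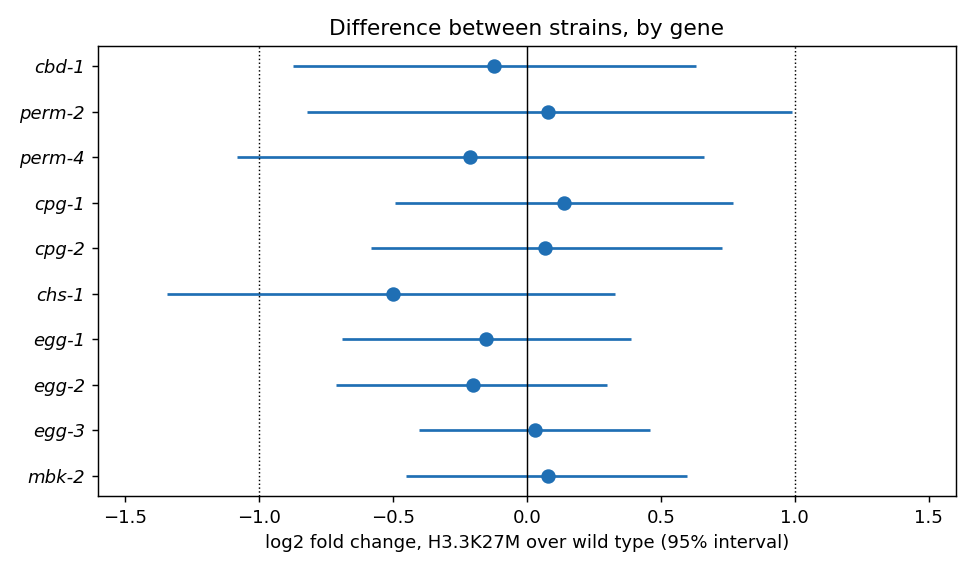
The log2 fold change of each gene, H3.3K27M over wild type, is shown on the x axis as a point with its 95% interval from edgeR's quasi-likelihood fit, with dotted lines at a 2-fold change. All 10 intervals include 0, and those of *perm-4* and *chs-1* cross the line at -1.

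These transcripts were abundant, and the lowest count of any of the 10 genes in any library was 6032. Libraries held between 28298609 and 32957429 counts, of which the 10 genes together took 2.68% and 2.49% in N2 gonads and 2.40% and 2.88% in FAS58 gonads. Over all genes, replicates of a strain were much farther apart than counting noise would place them (chi-square over its degrees of freedom 100.2 in N2 and 90.1 in FAS58). Levels are given below in CPM, that is counts relative to library size after TMM normalization, always replicate 1 before replicate 2. In whole dissected gonads, a change in oocyte number and a change in RNA per oocyte cannot be told apart. The paper reported more oocytes in the proximal germ lines of the mutant, with DNA contents many times those of the wild type. Their part in the levels given here was not tested.

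Levels of different genes were compared per kilobase of merged exons. *perm-4* and *perm-2* stood highest, with 5567 ± 846 and 5399.7 ± 641 CPM per kilobase in wild type (SD, n = 2), and their wild-type ranges overlapped. They ranked between 14 and 18 among the 15134 genes with a length in the wild-type libraries. *cpg-1*, *cbd-1*, *chs-1* and *cpg-2* followed, at 1375 ± 144, 1359.6 ± 83.2, 1198 ± 503 and 1173 ± 177 CPM per kilobase (SD, n = 2), and none of these neighbours in the order were separated beyond their range. Below them the order was *egg-1* at 424 ± 3.17, *egg-2* at 213 ± 14.2, *egg-3* at 119.8 ± 3.74 and *mbk-2* at 61.7 ± 5.93 CPM per kilobase (SD, n = 2), and here the ranges of neighbours did not overlap. Structural and synthetic genes of the shell thus lay above the genes of the oocyte membrane and of the activation complex. In the mutant the order of these groups was the same. There *perm-2* stood at 5724 ± 2705 and *perm-4* at 4806 ± 1965 CPM per kilobase (SD, n = 2), each with a larger SD than in wild type, and *chs-1*, at 845 ± 11.9 CPM per kilobase (SD, n = 2), came last of the structural and synthetic genes.

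**Figure D2:**
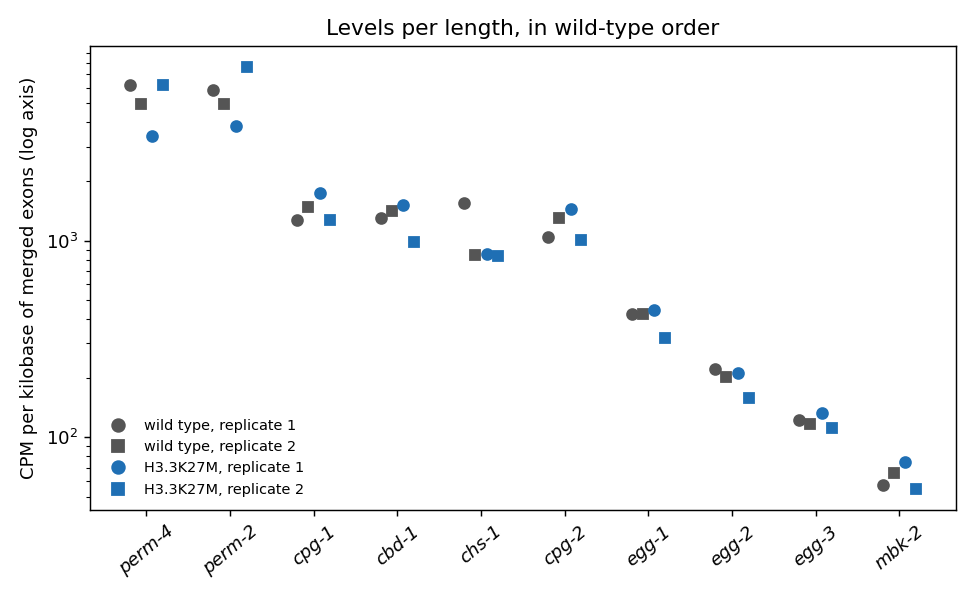
CPM per kilobase of merged exons on a log axis for each gene in each of the 4 libraries, with genes ordered by their wild-type mean. *perm-4* and *perm-2* stand at the top, with wild-type means of 5567 and 5399.7, and *mbk-2* at the bottom, with a wild-type mean of 61.7.

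*cbd-1* (WBGene00010351, WBcel235 chromosome IV, 11372991 to 11377627, plus strand) has a single annotated transcript and no overlapping gene. Wild-type gonads had 5490.4 and 5987 CPM, mutant gonads 6419.8 and 4136 CPM. The highest and the lowest value both came from the mutant, so that the wild-type libraries lay between them. Its log2 fold change of -0.12 ± 0.31 (SE) had an edgeR adjusted *p* of 0.832, with a 95% interval from -0.87 to 0.63, which corresponds to between 0.548 and 1.54 times the wild-type level. Scaling by library totals alone placed it at 0.01, and without mutant replicate 2 it was 0.16.

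*perm-2* and *perm-4* are neighbours on chromosome IV and are transcribed away from each other. *perm-4* (WBGene00016638) lies on the minus strand from 1121494 to 1125107 and *perm-2* (WBGene00016636) on the plus strand from 1126790 to 1128865, with 1682 bases and 0 annotated genes between them. *perm-2* measured 4308 and 3641 CPM in wild-type gonads, and 2805 and 5620.3 CPM in mutant gonads. *perm-4* measured 6818 and 5495 CPM in wild-type gonads, and 3779 and 6852 CPM in mutant gonads. In both genes mutant replicate 1 was the lowest and mutant replicate 2 the highest of the 4 libraries. The log2 fold changes were 0.08 for *perm-2* (SE 0.37, interval -0.82 to 0.99) and -0.21 for *perm-4* (SE 0.36, interval -1.08 to 0.66), with adjusted *p* = 0.906 and 0.737 in the edgeR fit. Their sign depended on which mutant library was kept. Without mutant replicate 1 they were 0.55 and 0.21, and without mutant replicate 2 they were -0.50 and -0.70. *perm-2* shares 25 exonic bases with the opposite-strand gene C44B12.6, which had at most 183 counts in any library against at least 91593 for *perm-2*.

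The proteoglycan genes of the inner layer behaved alike in the 4 libraries. *cpg-1* (WBGene00000465, chromosome III, 4489359 to 4491392, plus strand) measured 2405 and 2790.2 CPM in wild-type gonads, and 3312 and 2411 CPM in mutant gonads. *cpg-2* (WBGene00015102, chromosome III, 7102092 to 7103990, minus strand) measured 1805 and 2237 CPM in wild-type gonads, and 2508 and 1739 CPM in mutant gonads. For both genes mutant replicate 1 was the highest library. The ratio of *cpg-1* to *cpg-2* counts was 1.33 and 1.25 in N2 gonads, and 1.32 and 1.39 in FAS58 gonads. Their log2 fold changes were 0.14 (SE 0.26, interval -0.49 to 0.77) and 0.07 (SE 0.27, interval -0.58 to 0.73), with adjusted *p* = 0.763 and 0.888 in the edgeR fit.

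*chs-1* (WBGene00000496, chromosome I, 7554855 to 7559916, plus strand) had the lowest log2 fold change of the 10 genes. It measured 6669.7 and 3613 CPM in wild-type gonads, and 3665 and 3593 CPM in mutant gonads. Wild-type replicate 1 stood apart, and the remaining 3 libraries lay close together. The log2 fold change of -0.50 ± 0.34 (SE; interval -1.34 to 0.33; edgeR adjusted *p* = 0.402) rested on that library, since without wild-type replicate 1 it was 0.04 and without wild-type replicate 2 it was -0.88. The annotation of T25G3.3 on the same strand overlaps the exons of *chs-1* by 5 bases, and its counts, between 4768 and 5787, were far below those of *chs-1*.

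The genes of the oocyte membrane varied less. *egg-1* (WBGene00015083, chromosome III, 5728180 to 5730159, plus strand) measured 756 and 764 CPM in wild-type gonads, and 794 and 576 CPM in mutant gonads. *egg-2* (WBGene00019811, chromosome III, 7058527 to 7060583, minus strand) measured 393 and 358 CPM in wild-type gonads, and 374 and 278 CPM in mutant gonads. Mutant replicate 2 was the lowest library for both genes. They are paralogs, and the setting by which reads matching both would have been handled is not given in the sources used here, so that their separate levels are uncertain. The ratio of *egg-1* to *egg-2* counts nonetheless stayed between 1.92 and 2.14 over the 4 libraries. The log2 fold changes were -0.15 for *egg-1* (SE 0.22, interval -0.69 to 0.39) and -0.20 for *egg-2* (SE 0.21, interval -0.71 to 0.30), with adjusted *p* = 0.697 and 0.571 in the edgeR fit.

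*egg-3* (WBGene00009701, chromosome II, 10882408 to 10884441, minus strand), the scaffold of the activation complex, was the steadiest gene of the set. It measured 219.7 and 210.3 CPM in wild-type gonads, and 239 and 200.002 CPM in mutant gonads. The log2 fold change was 0.03 ± 0.18 (SE) with an edgeR adjusted *p* of 0.932, and its interval from -0.40 to 0.46 was the narrowest of the 10, equal to between 0.756 and 1.38 times the wild-type level. *mbk-2* (WBGene00003150, chromosome IV, 13009158 to 13035961, plus strand), a kinase of the DYRK family, measured 279 and 319 CPM in wild-type gonads, and 364 and 266 CPM in mutant gonads. The difference on the log2 scale was 0.08 ± 0.22 (SE), with an interval from -0.45 to 0.60 and an edgeR adjusted *p* of 0.851. The gene has 14 annotated transcripts, and the deposited counts are per gene, so its transcripts were not separated. The exons of *egg-1*, *egg-3* and *mbk-2* overlap those of opposite-strand genes by 42, 21 and 6 bases, and none of these partners had more than 110 counts in a library.

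**Figure D3:**
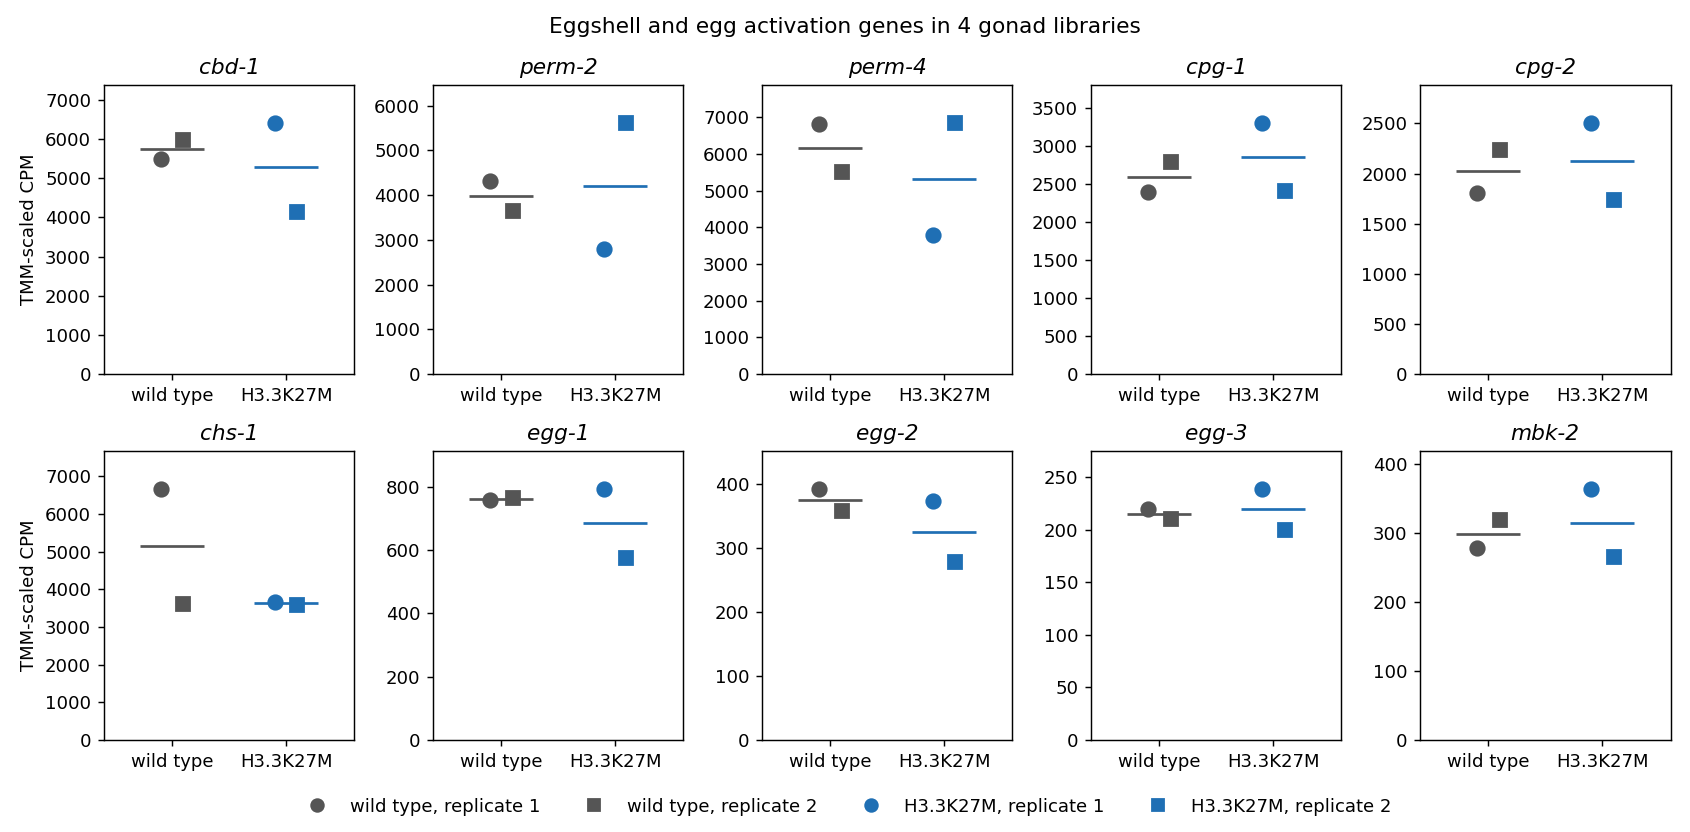
TMM-scaled CPM of each gene on a linear axis from 0, with 1 point per library and a line at the mean of each strain. The mutant and wild-type points overlap in all 10 panels, and of the mutant pairs those of *perm-2* and *perm-4* are the widest apart.

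The 10 genes differed from each other in how the replicates of a strain related to each other. In the mutant, replicate 2 exceeded replicate 1 for *perm-2* and *perm-4* by 1.00 and 0.86 on the log2 scale, or 2.00 and 1.81 times. For the other 8 genes it was lower, with log2 ratios between -0.63 for *cbd-1* and -0.03 for *chs-1*. Over the 1987 genes whose mean reached 100 CPM the median of this ratio was -0.202, with the middle 90% between -0.62 and 0.28. Among these genes, 20 others had a ratio at least as high as that of *perm-2* and 24 at least as high as that of *perm-4*. The 3 vitelline layer genes did not all move together, since *cbd-1* went the other way. In wild type the log2 ratio of replicate 2 to replicate 1 lay between -0.31 and 0.31 for 9 of the 10 genes, and it was -0.88 for *chs-1*. In that direction 25 other genes of at least 100 CPM had a ratio at least as low as *chs-1*.

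**Figure D4:**
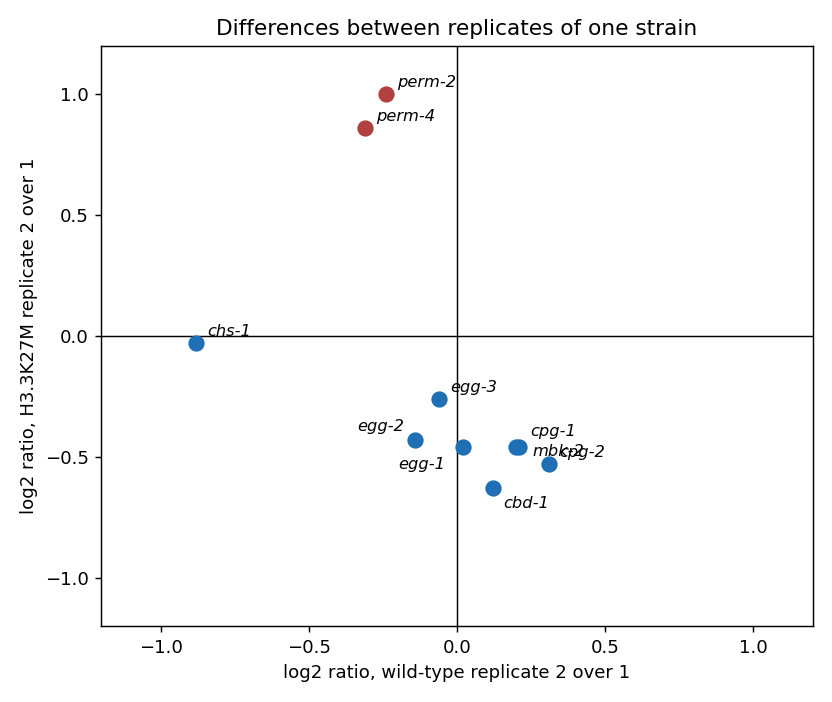
Each point is 1 gene, with the log2 ratio of wild-type replicate 2 over replicate 1 on the x axis and the log2 ratio of mutant replicate 2 over replicate 1 on the y axis. *perm-2* and *perm-4*, in red, are the only points above 0 on the y axis, at 1.00 and 0.86, and *chs-1* lies apart at -0.88 on the x axis.

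Across the 45 pairs of these genes, likeness was measured as the SD of the log2 ratio of their counts over the 4 libraries. The closest pair was *cpg-1* and *mbk-2*, with an SD of 0.0381, followed by *cpg-2* and *mbk-2* with 0.0550, *cpg-1* and *cpg-2* with 0.0629, and *egg-1* and *egg-2* with 0.0696. *perm-4* and *perm-2* had an SD of 0.169, and each of them paired with any of the other 8 genes had at least 0.442. The widest pair was *cbd-1* and *perm-2*, with 0.691. These values describe 4 libraries and were not tested. The following neighbours were chosen after their values were seen. Among the 1986 other genes with at least 100 CPM, *perm-4* was the sixth closest to *perm-2* and *perm-2* the fifth closest to *perm-4*, while *sdz-27* and C44B7.5 were among the 4 closest to both. The closest to *chs-1* were *nkcc-1*, F11A10.6, *ani-2*, *tre-1* and ZC376.6, with SDs between 0.0309 and 0.0926. *gna-2*, which encodes an enzyme that makes the sugar precursor of chitin, was the sixth closest to *chs-1*, with an SD of 0.0945. It measured 1351 and 753 CPM in wild-type gonads, and 800.4 and 671 CPM in mutant gonads, so that wild-type replicate 1 was highest, as for *chs-1*.

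Other genes of eggshell formation and egg activation gave the same picture. Of 42 such genes on 4 lists, 41 were found, 0 were called in either direction and 1 passed an unadjusted *p* of 0.05, against 5.89% and 24.7% of all genes tested. For 36 of the 41 the 95% interval of the log2 fold change lay within a 2-fold change. The largest list held 20 genes for other shell proteins, chondroitin and chitin precursors, and the lipid permeability barrier. Its median log2 fold change was -0.14, with 4 genes above 0. Its highest gene was *cpg-3*, another chondroitin proteoglycan gene, with a mean of 5530.5 CPM in N2 and 4652 CPM in FAS58 and a log2 fold change of -0.25 (SE 0.27). The gene of largest difference was *sqv-6*, a xylosyltransferase gene of chondroitin synthesis. Its counts were 104 and 183 in wild-type and 75 and 62 in mutant gonads, so that both mutant libraries were below both of the wild type. The log2 fold change of -1.22 (SE 0.46, interval -2.33 to -0.11) did not pass the test, with an edgeR adjusted *p* of 0.173.

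The list of cortical granule and secretion genes, with 6 of 7 names found, had a median log2 fold change of 0.05. The largest difference was in *cav-1*, a caveolin gene, at 0.36 (SE 0.48). For the 10 regulators of MBK-2 the median was 0.08. *cyb-3*, a cyclin B gene with the highest level of these, had a log2 fold change of -0.28 (SE 0.25). *cdk-1*, the kinase gene of meiotic maturation, had the largest difference, -0.37 (SE 0.19). The 5 genes for proteins phosphorylated by MBK-2 had a median of -0.04. *mex-5*, a polarity gene and the highest of these, had one of -0.04 (SE 0.21), and *oma-1*, a gene of oocyte maturation whose protein is degraded after egg activation, had the largest difference, 0.32 (SE 0.18). Each of these 5 genes had an adjusted *p* of at least 0.282 in the edgeR fit.

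**Figure D5:**
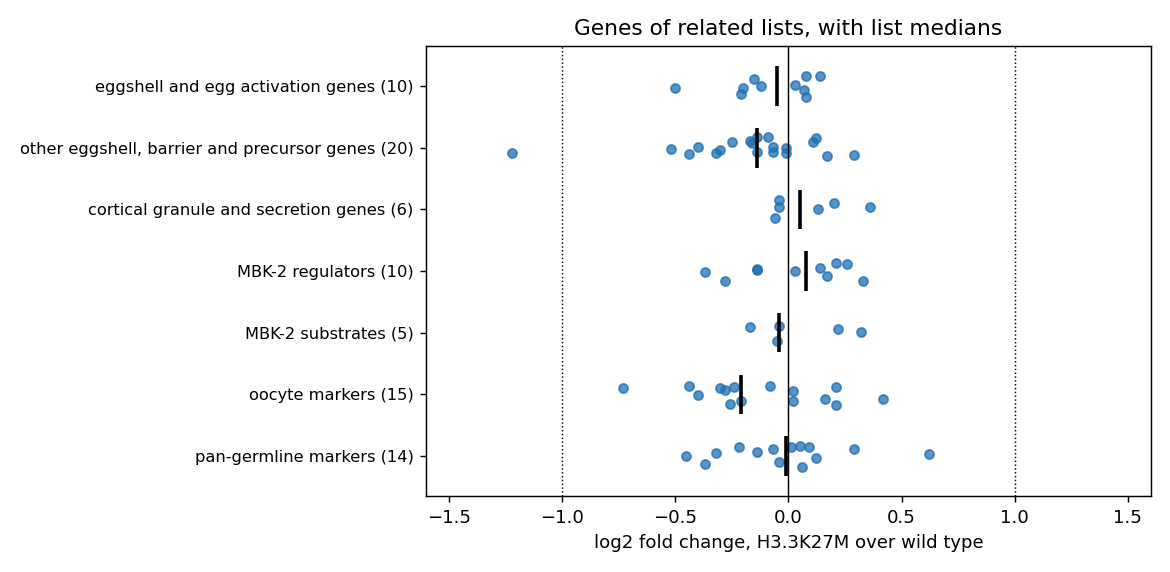
Log2 fold changes, H3.3K27M over wild type, of single genes on 7 lists, with the number of genes found in brackets and the list median as a black bar. No gene on these lists was called, the medians lie between -0.21 and 0.08, and *sqv-6*, at -1.22, is the point farthest to the left.

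Markers of the cells in and near the gonad were read beside these results. The 15 oocyte markers, none of them among the 10 genes, had 0 calls and a median log2 fold change of -0.21, and their summed level was 19697 and 16898 CPM in N2 gonads, against 14931.5 and 11599.7 CPM in FAS58. The separation of the strains in this sum came from *rme-2*, the yolk receptor gene, at 12297 and 8831 CPM in N2 gonads, against 6982 and 5793 CPM in FAS58 (log2 fold change -0.73, edgeR adjusted *p* = 0.217). Without it the other 14 markers summed to 7399 and 8067 CPM in N2 gonads, against 7949 and 5807 CPM in FAS58, which overlapped. The summed levels of the 10 eggshell and egg activation genes, 29143 and 25415 CPM in N2 gonads, against 24259 and 25671 CPM in FAS58, overlapped as well. The 14 pan-germline markers had 0 calls and a median of -0.01. The 12 somatic gonad markers also had 0 calls, with a median of -0.21.

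Markers of intestine, sperm and early embryos were called in part. Of 11 intestine markers 5 were called lower, the vitellogenin genes *vit-2* to *vit-6*, and the summed level of the list was 323 and 3184 CPM in N2 gonads, against 31.5 and 35.7 CPM in FAS58. The fall of the sum lay in these 5 genes, since the other 6 markers summed to 7.58 and 17.5 CPM in N2 gonads, against 21.3 and 19.5 CPM in FAS58. Of this smaller sum, *fat-2*, a fatty acid desaturase gene, gave 3.75 and 11.5 CPM in N2 and 17.5 and 15.4 CPM in FAS58, which masks falls among the 6. None of those 6 was called, and they went both ways. *elt-2*, the factor that defines the intestine, had at most 6 counts in any library (log2 fold change 1.37). *ges-1*, a gut esterase gene, had 5 and 19 counts in N2 and 114 and 43 in FAS58 (2.54). *fat-2* had 110 and 329 in N2 and 572 and 488 in FAS58 (1.11). Lower in the mutant were *act-5*, *ifb-2* and *elt-7*. *act-5* had 28 and 70 counts in N2 and 3 and 19 in FAS58 (log2 fold change -2.29). *ifb-2* had 28 and 52 in N2 and 1 and 21 in FAS58 (-2.0). *elt-7* had 49 and 31 in N2 and 1 and 43 in FAS58 (-1.01). Of 11 sperm markers 1 was called higher, *fer-1*, from counts of 123 and 77 to counts of 448 and 1411 (edgeR adjusted *p* = 0.0444). Their sums were 31.7 and 12.5 CPM in N2 gonads, against 97.9 and 164 CPM in FAS58. Of the 11 markers 7 had log2 fold changes above 0. The largest part of the sum came from *spe-41*, a sperm calcium channel gene, with 672 and 161 counts in N2 and 2521 and 3255 in FAS58 (edgeR adjusted *p* = 0.0512). It was most of the sum except in wild-type replicate 2, where it gave 5.61 of 12.5 CPM. Other sperm markers went the other way. *spe-10* had 25 and 16 counts in N2 and 0 and 3 in FAS58 (log2 fold change -3.81, interval -6.80 to -0.82, edgeR adjusted *p* = 0.135), and *spe-11* had a log2 fold change of -1.94. Of 7 genes first transcribed in early embryos 1 was called higher, *pes-10*, from counts of 0 and 2 to counts of 70 and 69 (edgeR adjusted *p* = 0.0350). All 7 had log2 fold changes above 0, with a median of 1.61. The sums of the list were 5.80 and 4.91 CPM in wild-type and 9.52 and 9.76 CPM in mutant gonads. With RLE in place of TMM normalization *fer-1* and *vit-4* were not called (edgeR adjusted *p* = 0.0545 and 0.0518). With any single library left out *fer-1* and *pes-10* were not called either, and without wild-type replicate 2 or either mutant library none of the 5 vitellogenin genes was, at edgeR adjusted *p* between 0.0948 and 0.258. Without wild-type replicate 1 *vit-6* was not called (edgeR adjusted *p* = 0.0501). The part of these tissues in the levels of the 10 genes was not tested.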

How the data were processed

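RNA from dissected gonads was sequenced in 2 libraries per strain, and replicates are biological per the methods. The extraction field of the labels describes other material (embryos and larvae), and the source, growth temperature and methods were followed instead. The authors mapped 50-base reads to WBcel235 with TopHat 2.0.13. HTSeq 0.6.1 and edgeR 3.10.5 are named in the submitters' processing notes, and the handling of strand and of reads matching several genes is not given in the sources used here. Only the raw counts deposited by the authors were used. The normalized signal per gene, the log2 values and the p-values that the authors deposited beside them, the log2 and p-values from their own comparison of the strains, were not used.

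After TMM normalization the quasi-likelihood test of edgeR 4.0.16 was run in R 4.3.3 (glmQLFit, glmQLFTest) on all 15261 genes that had a count in any library. The model held strain alone, and *p*-values were adjusted over the whole table by Benjamini-Hochberg. A call followed the thresholds of the methods and required an adjusted *p* below 0.05 and more than a 2-fold difference. Total counts lay between 28298609 and 32957429, and 3 counts, the detection floor, equal at most 0.105 CPM, which covers counting error only. Standard errors are the absolute log2 fold change over the square root of F, and 95% intervals use the t distribution with the fit's degrees of freedom. The fit was tested on simulated data. Positions and lengths came from Ensembl release 115, which held 15159 genes of the table.

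The genes and lists were chosen with earlier results of these data known. All 10 genes are named. Of related lists, called genes and otherwise the gene of highest level and that of largest difference are named, and of marker lists only called genes. Exceptions, chosen after their values were seen, are *rme-2*, *elt-2*, *ges-1*, *fat-2*, *act-5*, *ifb-2*, *elt-7*, *spe-41*, *spe-10*, *spe-11*, *gna-2*, *sdz-27*, C44B7.5, *nkcc-1*, F11A10.6, *ani-2*, *tre-1* and ZC376.6. The gene of highest level on the cortical granule list is not reported here. Alternatives were RLE, upper-quartile and no scaling factors, DESeq2 1.42.0, the legacy and exact tests of edgeR, filterByExpr, a replicate block, the adjusted *p* alone, another gene length, and leaving out each library.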

Additional observations from a re-analysis of the deposited data

How the results depend on the processing

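None of the 10 genes and none of the 41 related genes was called under any alternative. With a replicate block the count of the 10 genes called was 0, and the crossed block, chosen after seeing the data because the replicate differences of the strains correlated at -0.12 over 9237 genes, also gave 0, with 463 and 856 calls over all genes against 899 without a block. With the replicate block the marker genes *vit-2*, *pes-10* and *fer-1* were not called (edgeR adjusted *p* = 0.0506, 0.0508 and 0.0950), and with the crossed block *vit-6* was not. DESeq2 gave 1750 calls over all genes and the exact test of edgeR 1518. The related genes and the marker genes were refitted with the same alternatives after seeing the data. Directions near 0 were not stable: with library totals alone, which shifted the median log2 fold change of all genes by 0.15, *cbd-1* moved to 0.01. With 1 library left out the log2 fold changes ranged from -0.42 to 0.16 for *cbd-1*, -0.50 to 0.55 for *perm-2*, -0.70 to 0.21 for *perm-4*, -0.05 to 0.35 for *cpg-1*, -0.16 to 0.31 for *cpg-2*, -0.88 to 0.04 for *chs-1*, -0.35 to 0.06 for *egg-1*, -0.38 to -0.01 for *egg-2*, -0.05 to 0.15 for *egg-3* and -0.12 to 0.29 for *mbk-2*. With 3 libraries the lone sample of a strain is assumed to vary like the others, and only between 0 and 118 genes of the whole table were called, so these fits say little about calls. With the longest transcript as its length, *mbk-2* had 82.6 CPM per kilobase in wild type and 87.0 in the mutant, and remained the lowest of the 10. The lowest count of the 10 genes was 6032, and over all genes replicates of a strain differed far more than counting noise. How far replicate spread, depth and the use of 2 libraries per strain each limit these results was not tested.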
